A study of Mus musculus with 6 samples.

Results

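The genes described here are 46 that act at replication origins and forks, chosen by name: the origin recognition complex, the licensing factors, the factors that fire origins, the replicative polymerases, the sliding clamp and its loaders, the single-strand binding protein, the enzymes that join Okazaki fragments, the fork protection proteins and chromatin assembly factor 1. The helicase genes of the MCM family were left out by the choice of list. Of the 46 genes, 45 had a probe set of their own on the array and all 45 passed the filter on dim signals, out of 10520 genes tested. Chaf1a was not analysed here. RNA came from Ba/F3-N cells, a mouse line of bone marrow origin derived from the pro-B line Ba/F3 and driven by the oncogenic G12D form of NRAS, so every sample carried that oncogene. In the treated group, 3 samples were exposed to 1 µM N-arachidonoyl dopamine (NADA), a lipid that joins arachidonic acid to dopamine, and in the control group 3 samples received the same volume of vehicle. All 6 were collected after 12 hours and each was hybridised to 1 Affymetrix Mouse Genome 430 2.0 array. The comparison asks which replication transcripts differ in NRAS-driven cells after NADA. The labels do not say whether the samples of a group were separate cultures, and the spread behind each p-value may therefore be technical.

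Replication is set up before S phase, when the origin recognition complex and CDC6 sit on DNA and CDT1 brings in the MCM helicase, a step that geminin blocks once S phase has begun. The kinase CDC7, with its activator DBF4, then lets CDC45 and the GINS complex join the helicase, and polymerase alpha-primase, polymerase delta and polymerase epsilon copy the strands while PCNA, loaded by replication factor C, holds them on DNA. Many of these genes are transcribed in bursts at the boundary of G1 and S under E2F factors, and their mRNA is typically abundant in dividing blood progenitor lines. In RNA from a whole culture, a smaller share of cells in S phase and less mRNA per cell cannot be told apart.

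Promoter sequences of the members were searched for words of cell cycle factors. In the RefSeq promoter table (GRCm38.p6, windows of 300 bases that run from 250 before a start site to 50 after it), 37 of the 46 members had an entry. Some members had several windows, 46 in all, and a gene was counted if any of its windows held a word. In 19 of these windows the start site was the start of the RefSeq gene, so distances are given from the start site of the window. The E2F-type words TTTCCCGC, TTTCGCGC, TTTGCCGC and TTTGGCGC were searched on both strands. At least 1 of them lay in the window of 13 of the 37 members (35.1%), against 704 of 27025 genes in the whole table (2.6%) and 414 of the 8579 tested genes with a window (4.83%). The NF-Y word CCAAT was in 18 members (48.6%, against 42.6% of tested genes), and the CHR word TTTGAA in 6 (16.2%, against 14.1%), both near the share of tested genes. No word was in all members, and 24 of the 37 held no E2F word. A match is a description of these letters and shows no binding. A set of 6 windows is printed 5' to 3' on the strand of the gene, with E2F words in capitals, to set genes with large falls beside the genes that moved least. Cdc6 (chr11:98907901-98908200, plus strand) had the lowest fold change of all members. Rfc3 (chr5:151651159-151651458, minus strand) carried a pair of E2F words around its start site, and Orc1 (chr4:108579204-108579503, plus strand) carried 1 E2F word beginning 27 bases before its own. Orc3 (chr4:34614893-34615192, minus strand) and Gins3 (chr8:95633309-95633608, plus strand) had the smallest changes of all members, and each holds an E2F word beginning 41 bases before the start site of its window. Orc6 (chr8:85299382-85299681, plus strand) fell strongly with no E2F word in its window.
Cdc6: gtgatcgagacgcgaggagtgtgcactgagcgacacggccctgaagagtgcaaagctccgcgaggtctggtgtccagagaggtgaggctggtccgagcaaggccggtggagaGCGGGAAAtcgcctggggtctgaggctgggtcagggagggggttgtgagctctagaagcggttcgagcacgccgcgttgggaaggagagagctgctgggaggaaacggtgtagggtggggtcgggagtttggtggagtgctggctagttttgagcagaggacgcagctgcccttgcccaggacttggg
Rfc3: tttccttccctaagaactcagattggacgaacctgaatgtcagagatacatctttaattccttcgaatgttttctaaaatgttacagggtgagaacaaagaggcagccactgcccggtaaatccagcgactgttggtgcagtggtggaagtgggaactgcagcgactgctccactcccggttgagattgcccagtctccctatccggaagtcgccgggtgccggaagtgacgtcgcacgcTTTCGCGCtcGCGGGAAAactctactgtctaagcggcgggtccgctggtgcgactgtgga
Orc1: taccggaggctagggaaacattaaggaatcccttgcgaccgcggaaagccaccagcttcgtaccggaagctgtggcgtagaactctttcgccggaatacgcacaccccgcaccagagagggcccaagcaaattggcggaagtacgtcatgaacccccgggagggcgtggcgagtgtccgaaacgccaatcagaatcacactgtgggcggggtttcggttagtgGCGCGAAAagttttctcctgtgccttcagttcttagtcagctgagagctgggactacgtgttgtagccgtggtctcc
Orc6: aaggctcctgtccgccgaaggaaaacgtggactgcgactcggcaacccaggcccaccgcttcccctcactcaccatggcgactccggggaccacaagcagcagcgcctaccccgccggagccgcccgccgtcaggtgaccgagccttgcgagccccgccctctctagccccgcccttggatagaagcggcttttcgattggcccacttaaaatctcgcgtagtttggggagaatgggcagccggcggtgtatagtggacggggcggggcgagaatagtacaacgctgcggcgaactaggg
Orc3: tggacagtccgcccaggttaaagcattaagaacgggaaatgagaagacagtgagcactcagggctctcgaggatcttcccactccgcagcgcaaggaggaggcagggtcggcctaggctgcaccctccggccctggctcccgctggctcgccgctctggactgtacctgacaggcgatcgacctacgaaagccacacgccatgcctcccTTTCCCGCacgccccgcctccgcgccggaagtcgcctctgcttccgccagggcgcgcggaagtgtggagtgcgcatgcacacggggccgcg
Gins3: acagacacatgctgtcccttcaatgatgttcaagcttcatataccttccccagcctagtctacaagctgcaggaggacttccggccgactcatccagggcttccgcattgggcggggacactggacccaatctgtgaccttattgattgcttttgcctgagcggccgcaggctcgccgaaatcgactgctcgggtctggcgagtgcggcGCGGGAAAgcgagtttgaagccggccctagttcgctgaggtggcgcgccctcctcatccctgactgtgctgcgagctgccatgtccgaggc

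Replication genes were lower in NADA. Of the 45 tested, 44 fell and 0 rose (limma, Benjamini-Hochberg adjusted p under 0.05, with adjustment over 10520 genes), while 1, Gins3, was not called. Over all genes tested 37.6% were called lower and 35.9% higher. The median log2 fold change of the members was -0.96, with quartiles at -1.23 and -0.68, against 0.01 over all genes tested. The falls ran from 4.06-fold for Cdc6 to 1.07-fold for Orc3. At least 2-fold falls were called for 21 members (46.7%), compared with 6.06% of all genes. All 3 NADA values lay below all 3 vehicle values in 44 members (97.8%), compared with 38.8% of all genes (76% with no overlap in either direction), and 31 members were among the lowest 10 percent of genes by fold change. Chtf18 had a mean intensity of 31.7 in NADA, under the limit of 39.01 below which probe sets were left out, and passed through its vehicle signal of 69.1; among the other 44 members, 43 fell and 20 fell at least 2-fold (45.5%).

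**Figure D1:**
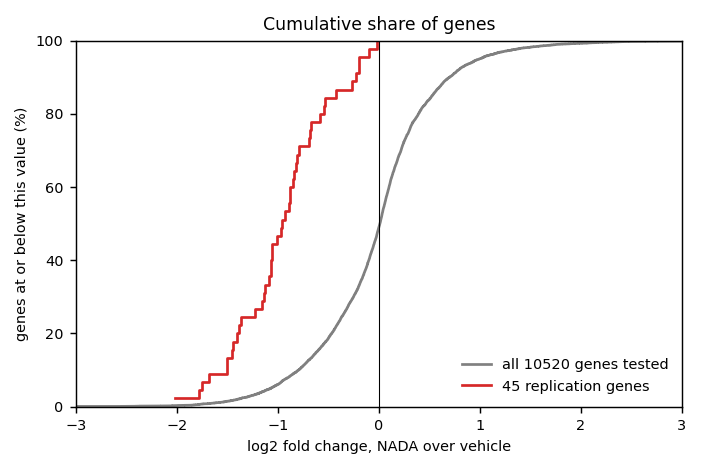
Cumulative share of genes (vertical axis, %) at or below each log2 fold change of NADA over vehicle (horizontal axis), for all 10520 genes tested in grey and the 45 replication genes in red. The red line runs from -2.02 to -0.02 and lies left of the grey line in that range, with its median at -0.96 against 0.01. Only the values over all genes reach lower, down to -3.95, which lies outside the plotted axis.

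Arrays of 1 group were close to each other. Array by array, the median of the members relative to their vehicle mean was -0.92, -0.96 and -0.99 on the NADA arrays and 0.02, -0.01 and -0.01 on the vehicle arrays. The median SD of a member between arrays was 0.06 in NADA and 0.03 in vehicle on the log2 scale, against 0.06 and 0.05 over all genes. The groups also differed in quality measures. The bacterial poly-A control RNAs, which are spiked into each RNA, averaged 8.02 ± 0.18 (SD over 3 arrays) against 7.52 ± 0.01 on the log2 scale, higher with NADA. The hybridization control probe sets averaged 10.08 ± 0.05 against 9.93 ± 0.10, also higher with NADA. The log2 ratio of the 3' to the 5' probe set was 1.06 ± 0.05 against 0.67 ± 0.04 for the actin gene Actb and -0.07 ± 0.06 against -0.22 ± 0.03 for Gapdh, and each of these reached p = 0.1 in a two-sided exact permutation test, the smallest p that 3 against 3 arrays allow. Their part in the falls of the replication genes was not tested. Scaled to the poly-A RNAs, the median of all genes moved to -0.50, that of the members to -1.47, all 45 members were called lower, and the calls over all genes split into 963 higher and 7707 lower in place of 3775 and 3958. Among markers of the line, Ptprc was bright (intensity 6449 in NADA and 4034 in vehicle) and so was the IL-3 receptor chain Csf2rb (3337 and 990), whereas the B lineage genes Cd79a, Vpreb1, Ebf1, Pax5, Rag1 and Dntt and the progenitor gene Kit lay below the dim limit. The B lineage genes Cd79b (112 in NADA and 81.0 in vehicle) and Igll1 (43.8 in vehicle and slightly more in NADA) lay above it. Markers of T cells, fibroblasts, epithelium and endothelium stood at 9.38 to 89.9. Of these Cd3e, Cd4, Epcam and Pecam1 lay above the dim limit, at intensities like those of Cd79b and Igll1. The dim limit therefore does not set these B lineage markers apart from markers of other cells. The macrophage markers also lay above it, Csf1r at 69.3 in NADA and 61.3 in vehicle and Adgre1 at 280 in NADA and 109 in vehicle. The part of these markers in the result was not tested.

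**Figure D2:**
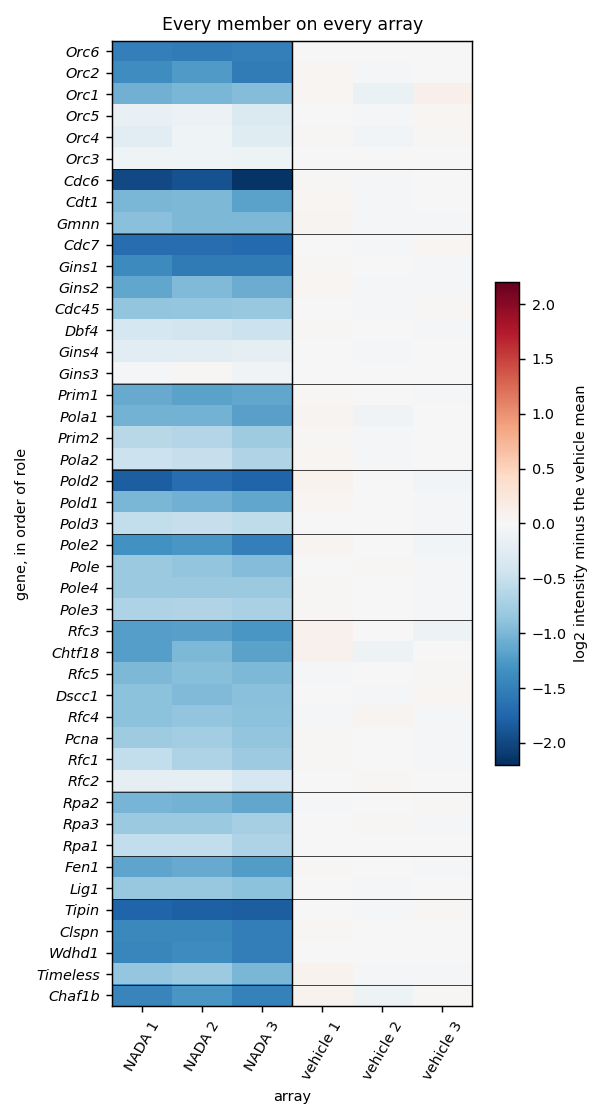
Every tested replication gene (rows, in order of role) on each of the 6 arrays (columns), coloured by log2 intensity minus the vehicle mean of that gene, with blue for lower. The NADA columns are blue in nearly every row and pale for Gins3, Orc3, Orc4 and Orc5, and the vehicle columns stay near 0.

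The origin recognition complex split into strongly and weakly changed subunits. ORC1 to ORC5 form the ring that marks origins, and ORC6 binds it. Orc6 had intensities of 263, 257 and 264 on the NADA arrays and 753, 744 and 736 on the vehicle arrays. The groups lie far apart, and the log2 fold change was -1.51 ± 0.04 (SE of the fit, adjusted p = 2.28e-14). Orc2 fell by 1.38 ± 0.06 on the log2 scale and Orc1, the subunit that is the most cell cycle regulated of the complex, by 1.01 ± 0.06. Orc3 stood at 355, 354 and 347 in NADA and at 381, 377 and 373 in vehicle. Its groups do not overlap but are close, with a log2 fold change of -0.10 ± 0.04 (adjusted p = 0.0495), and the call was lost in 12 of 20 alternative settings, among them each omission of 1 array (adjusted p from 0.0658 to 0.126 without 1 array). Orc4 and Orc5 changed by -0.20 ± 0.05 each (adjusted p = 0.00206 and 0.00188). The 95% confidence intervals of Orc1, Orc2 and Orc6 reached up to -0.87 at most, and those of Orc3, Orc4 and Orc5 down to -0.31 at most, a contrast seen in the values and not tested.

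Licensing factors and their inhibitor fell together. Cdc6, which loads the helicase with ORC, had intensities of 182, 192 and 161 in NADA and 738, 707 and 723 in vehicle. Treated arrays held about 24.6% of the vehicle level, the lowest share of any member, with a log2 fold change of -2.02 ± 0.06 (adjusted p = 3.63e-14) that ranked 28th from the lowest of all 10520 genes. Cdt1, the partner that delivers the helicase, fell by 1.06 ± 0.04 on the log2 scale. Gmnn, the gene of geminin, which binds and blocks CDT1, had 1298, 1237 and 1235 in NADA and 2541, 2405 and 2402 in vehicle. It changed by -0.96 ± 0.03 (adjusted p = 5.28e-13), with wide space between the groups. Within arrays the log2 ratio of Cdt1 to Gmnn was 0.47 ± 0.09 (SD, n = 3) in NADA and 0.56 ± 0.01 in vehicle, and the values overlapped (exact permutation p = 0.3). A dimmer Cdt1 probe set read -1.34 in place of -1.06, and with the mean of both the ratio differed by -0.23 without overlap, so the readings disagree on whether this ratio shifted. The log2 ratio of Cdc6 to Cdt1 differed by -0.97 ± 0.02 (SE), with no overlap.

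Among the genes of origin firing the subunits of 1 complex did not move alike. Cdc7, the kinase that triggers origins, had 192, 193 and 187 in NADA and 608, 598 and 635 in vehicle. Treated and control arrays lay far apart, at a log2 fold change of -1.69 ± 0.05 (adjusted p = 2.10e-14). Its activator Dbf4 changed by -0.42 ± 0.04, and the log2 ratio of Cdc7 to Dbf4 differed by -1.26 ± 0.04 (SE) with no overlap between groups. With the mean of all passing probe sets this ratio differed by -0.88. Cdc45, which joins the helicase at firing, fell by 0.85 ± 0.05 on the log2 scale. The GINS complex has a subunit from each of 4 genes. Gins1 and Gins2 changed by -1.50 ± 0.05 and -1.06 ± 0.06, and Gins4 by -0.23 ± 0.04. Gins3 had 167, 172 and 161 in NADA and 170, 169 and 169 in vehicle, so 1 treated array lay above all vehicle arrays. Its log2 fold change was -0.02 ± 0.05 (adjusted p = 0.727), and the 95% confidence interval ran from -0.14 to 0.09.

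**Figure D3:**
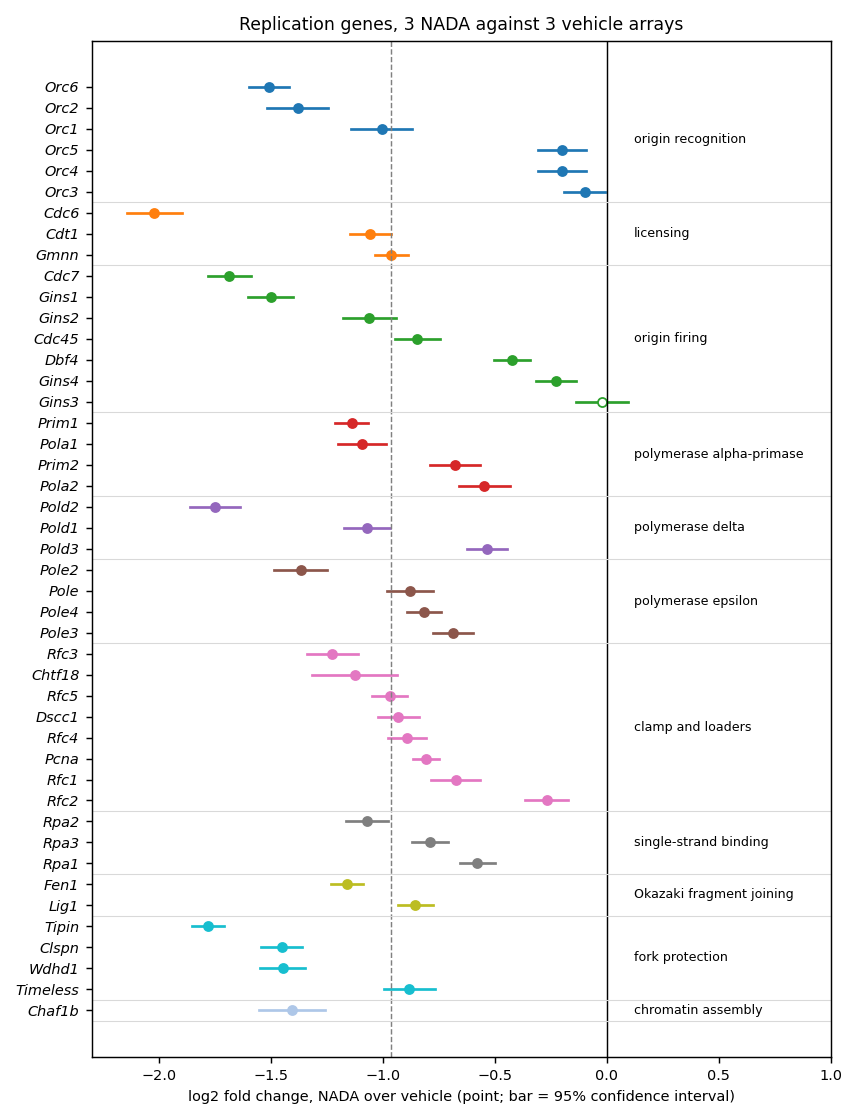
Log2 fold change of NADA over vehicle (horizontal axis) for each tested replication gene, grouped by role, with points for the estimate and bars for its 95% confidence interval; the open point was not called and the dashed line is the median of the members, -0.96. Cdc6, Tipin, Pold2 and Cdc7 lie lowest, and Orc3, Orc4, Orc5, Gins3, Gins4, Rfc2 and Dbf4 lie above -0.5.

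All 11 listed genes of the replicative polymerases fell, where 37.6% of all genes tested were called lower. Polymerase alpha-primase starts each strand with an RNA primer and a short stretch of DNA. Prim1, its catalytic primase subunit, had 756, 724 and 741 in NADA and 1656, 1628 and 1612 in vehicle. All treated values lay far below the controls (log2 fold change -1.14 ± 0.03, adjusted p = 7.26e-14). Pola2, the regulatory B subunit, had 296, 290 and 261 in NADA and 423, 399 and 416 in vehicle, a smaller gap (-0.55 ± 0.05, adjusted p = 1.03e-07). Pola1, the catalytic polymerase subunit, changed by -1.09 ± 0.05 and Prim2, the large primase subunit, by -0.68 ± 0.05. In polymerase and primase alike the catalytic gene had the lower fold change. The log2 ratio of Pola1 to Pola2 differed between groups by -0.55 ± 0.02 and that of Prim1 to Prim2 by -0.46 ± 0.06, with no overlap in either.

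Polymerase delta, which copies the lagging strand, showed the widest range among the polymerases. Pold2, a regulatory subunit, had 151, 166 and 156 in NADA and 556, 524 and 509 in vehicle. Its log2 fold change of -1.75 ± 0.05 (adjusted p = 7.29e-14) was among the lowest of the members. The catalytic gene Pold1 changed by -1.07 ± 0.05, read from a probe set of a type that can bind several transcripts. Pold3 had 382, 391 and 376 in NADA and 558, 560 and 549 in vehicle, groups that are well apart although the change was modest (-0.54 ± 0.04, adjusted p = 5.55e-09). The ratio of Pold1 to Pold3 differed by -0.54 ± 0.04. Pold4, the smallest subunit of the same enzyme and not a member of the list, went the other way: its intensity was 412 in NADA and 176 in vehicle, and it rose by 1.23 ± 0.05 (adjusted p = 2.60e-12).

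Polymerase epsilon, which copies the leading strand, fell in all 4 subunits (37.6% of all genes tested were called lower). Pole2, a regulatory subunit, had 267, 276 and 237 in NADA and 699, 665 and 646 in vehicle, well apart (-1.37 ± 0.06, adjusted p = 2.42e-12). Pole, the catalytic gene, changed by -0.88 ± 0.05 and Pole4, one of the small histone-fold subunits, by -0.82 ± 0.04. Pole3, the other histone-fold subunit, had 366, 371 and 357 in NADA and 598, 590 and 575 in vehicle. By its brightest probe set it changed least in this enzyme (-0.69 ± 0.04, adjusted p = 2.78e-10). Its other probe sets read -1.07 and -0.18, so this rank depends on the probe set. The ratio of Pole2 to Pole3 differed by -0.68 ± 0.05 with no overlap.

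Of the sliding clamp and its loaders, the 7 genes bright in both groups fell, with a median of -0.89. Over all genes tested 37.6% were called lower. Chtf18 passed only through its vehicle signal. Pcna, the clamp, fell by 0.81 ± 0.03 on the log2 scale from a mean intensity of 13189 to 7529. Among the subunits of replication factor C, Rfc3 had 255, 259 and 245 in NADA and 634, 595 and 551 in vehicle. This was the largest change of the loaders (-1.23 ± 0.05, adjusted p = 4.28e-12). Rfc5, Rfc4 and the large subunit Rfc1 changed by -0.97, -0.89 and -0.67. Rfc2 had 1287, 1306 and 1140 in NADA and 1488, 1520 and 1481 in vehicle. Here the gap between groups was about as wide as the spread of the treated arrays (-0.27 ± 0.05, adjusted p = 5.33e-05), and the call was lost against a minimum of 1.2-fold (adjusted p = 0.814). Dscc1 and Chtf18, subunits of the alternative loader that also serves sister chromatid cohesion, changed by -0.93 ± 0.04 and -1.13 ± 0.09. Chtf18 had 29.9, 34.7 and 30.4 in NADA and 73.5, 64.1 and 69.7 in vehicle. The size of its change depended on how low values were treated, at -0.67 with 32 added to each intensity and -0.46 with a floor of 50.

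Replication protein A, which coats single-stranded DNA, fell in its 3 subunits, against 37.6% of all genes tested called lower. Rpa2 had 480, 479 and 441 in NADA and 954, 986 and 1002 in vehicle with a wide gap (-1.07 ± 0.04, adjusted p = 1.92e-12). Rpa3, the smallest subunit, changed by -0.79 ± 0.04. Rpa1, the largest subunit, had 2030, 2031 and 1845 in NADA and 2934, 2917 and 2973 in vehicle. Its groups were clearly apart at a change of -0.58 ± 0.04 (adjusted p = 4.82e-10). Of the pair that finishes Okazaki fragments, the flap nuclease gene Fen1 had 1493, 1531 and 1423 in NADA and 3376, 3324 and 3255 in vehicle. Its log2 fold change was -1.16 ± 0.03 (adjusted p = 3.72e-14), also read from a probe set that can bind several transcripts. Lig1, the ligase, had 702, 701 and 667 in NADA and 1258, 1235 and 1257 in vehicle (-0.86 ± 0.04, adjusted p = 3.83e-12), and the ratio of Fen1 to Lig1 differed by -0.31 ± 0.02 with no overlap.

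The fork protection genes had the lowest median of the role groups with several members. TIPIN and TIMELESS form a complex that steadies the fork and passes stress signals to claspin and the checkpoint kinase CHK1. Tipin had 730, 711 and 704 in NADA and 2462, 2401 and 2519 in vehicle. It had the smallest adjusted p of all members (-1.78 ± 0.03, adjusted p = 6.33e-16). Timeless had 414, 429 and 370 in NADA and 782, 728 and 724 in vehicle with a smaller decline than Tipin (-0.88 ± 0.05, adjusted p = 3.19e-10). The log2 ratio of Timeless to Tipin was -1.73 ± 0.07 (SD, n = 3) in vehicle and -0.82 ± 0.10 in NADA, without overlap. Clspn, the gene of claspin, changed by -1.45 ± 0.04, and Wdhd1, which ties the helicase to polymerase alpha, by -1.45 ± 0.05. Chaf1b, a subunit of the chaperone that places histones behind the fork, had 94.8, 108 and 93.1 in NADA and 277, 243 and 264 in vehicle. Those arrays were far apart too (-1.41 ± 0.07, adjusted p = 2.05e-11).

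Set side by side, the medians were -0.60 for origin recognition, -1.06 for licensing and -0.85 for origin firing, which stood at -0.42 with the mean of all passing probe sets. They were -0.89 for polymerase alpha-primase, -1.07 for polymerase delta and -0.85 for polymerase epsilon. The clamp and its loaders stood at -0.91 (-0.89 without Chtf18, which passed only through its vehicle signal). The single-strand binding protein stood at -0.79, Okazaki fragment joining at -1.01 and fork protection at -1.45. The ranges overlapped: origin recognition ran from -1.51 to -0.10 and fork protection from -1.78 to -0.88. Differences between role groups were not tested. Scaled to the poly-A RNAs, the medians of the role groups ran from -1.96 for fork protection to -1.11 for origin recognition. Genes with an E2F word in the promoter window had a median of -1.06 (13 members, from -2.02 to -0.02), and the 23 tested members whose window held none had -0.89 (from -1.75 to -0.20), which is also a description without a test.

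Partners were compared within arrays, where any scaling of whole arrays cancels. Of 17 pairs listed, 16 were measured (Chaf1a with Chaf1b was not analysed here), and in 13 (81.2%) the NADA and vehicle ratios did not overlap. Among single genes of the whole array 76% had no overlap in either direction, so the count is near that background and is not read as a result about the partners. Each of these 13 had p = 0.1 in the two-sided exact permutation test, the smallest that 3 against 3 arrays can give, and 0.123 after Benjamini-Hochberg adjustment over the 16 pairs, so the design cannot carry any of them past 0.05. The ratio of Rfc1 to Rfc3 differed by 0.55 ± 0.07 on the log2 scale, Pole to Pole2 by 0.49 ± 0.05, Orc1 to Orc2 by 0.38 ± 0.12, Rpa1 to Rpa3 by 0.21 ± 0.08 and Gins1 to Gins2 by -0.44 ± 0.09. Some of these sizes rested on the probe set. The other Gins2 probe set read -1.46, close to Gins1, while the brightest is of a type that can bind several transcripts, and the other Rpa1 probe set read -0.74, close to Rpa3. With the mean of all passing probe sets the difference was -0.88 for Cdc7 to Dbf4, -0.24 for Gins1 to Gins2, -0.75 for Prim1 to Prim2 and -0.54 for Fen1 to Lig1. Rpa1 to Rpa3 (0.13) then overlapped between groups. Ratios of Orc6 to Orc2 (-0.13 ± 0.09), Cdt1 to Gmnn (-0.09 ± 0.05) and Rfc4 to Chtf18 (0.23 ± 0.11) overlapped between groups. The last of these depends on how the dim Chtf18 signal is treated, and turned to -0.19 with 32 added to each intensity and to -0.43 with a floor of 50.

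**Figure D4:**
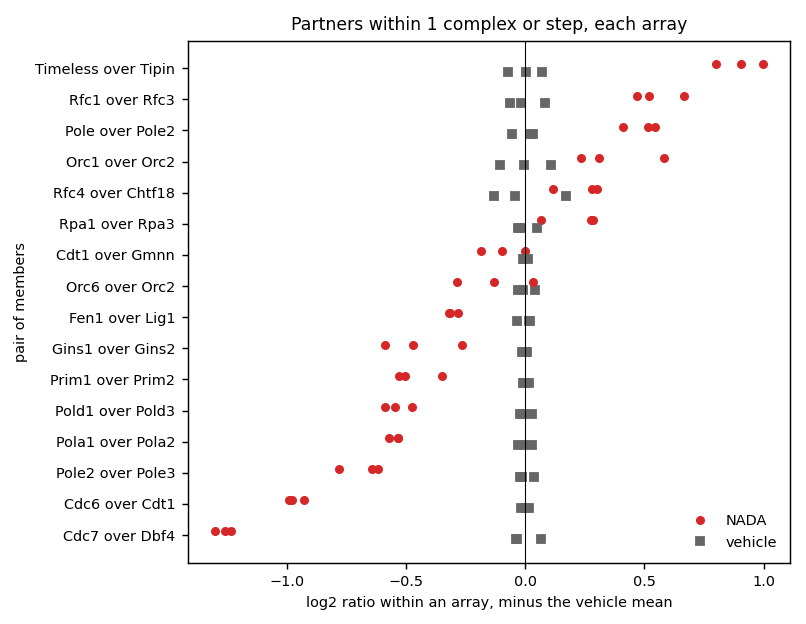
Log2 ratio of the first to the second gene of each pair on each array, minus the vehicle mean (horizontal axis), with NADA arrays as red circles and vehicle arrays as grey squares. Cdc7 over Dbf4 and Cdc6 over Cdt1 lie lowest in NADA and Timeless over Tipin highest, while Cdt1 over Gmnn, Orc6 over Orc2 and Rfc4 over Chtf18 overlap.

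Other probe sets of the same genes gave a further reading. The values above come from the brightest probe set of each gene, and 27 members had 36 other probe sets above the dim limit. Of these, 35 were lower in NADA, 31 passed limma at an adjusted p under 0.05 over all probe sets with 1 gene, and 0 were called higher. By their brightest probe set, 37.6% of all genes tested were called lower and 35.9% higher. Cdc7 (37.7 in NADA and 71.2 in vehicle), Pola2 (31.6 and 62.6) and Pole2 (24.6 and 61.0) each had another probe set that passed only through its vehicle signal. A fall there is favoured by the filter and adds no support, and these probe sets are included in the counts of 35 and 31. The median gap of the 36 to the brightest probe set was 0.19 on the log2 scale. Orc2 read -1.17 and -1.68 from its others, Fen1 -1.64, Clspn -1.76 and Orc3 -0.41 and -0.22. Gins3, not called from its brightest probe set, was called lower from the other (-0.20, adjusted p = 0.019). In 4 genes a probe set differed by over 0.5: Cdc45 read 0.06 (adjusted p = 0.503) from a dimmer one, Prim2 -0.05, Pole3 -0.18 and -1.07, and Cdc7 -0.93. For Cdc45 the readings therefore disagree in direction.

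**Figure D5:**
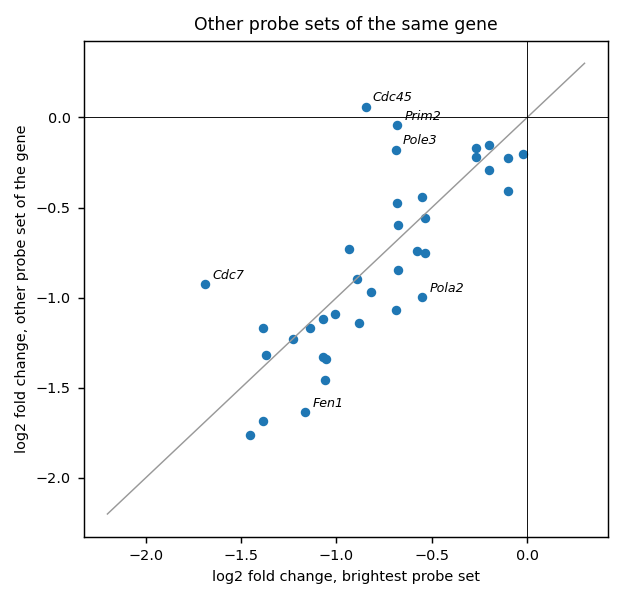
Log2 fold change from the other probe sets of a gene (vertical axis) against that from its brightest probe set (horizontal axis), 36 probe sets of 27 replication genes, with the line of equality. Most points follow the line, 1 lies above 0 (Cdc45), and genes more than 0.4 apart are named.

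Most genes of the same pathway outside the list fell as well. As background for these counts, 37.6% of all genes tested were called lower and 35.9% higher, with a median log2 fold change of 0.01. Of 26 other initiation and fork genes 25 were tested, of which 23 fell, 1 rose and 1 missed the threshold. Their median was -0.92. The lowest were Nasp, a histone chaperone (-1.84 ± 0.04), Dna2, a nuclease and helicase that trims flaps (-1.79 ± 0.04), and Atad5, which unloads PCNA (-1.27 ± 0.05). The highest were Pold4, the topoisomerase gene Top1 (-0.01 ± 0.03, adjusted p = 0.678) and the histone chaperone gene Asf1a (-0.41 ± 0.03). Checkpoint genes behaved alike: 7 of 8 fell, 0 rose and the median stood at -0.78. The kinase gene Chek1 changed by -1.28 ± 0.04, and Rad1 and Hus1, which share a checkpoint clamp with RAD9, by -1.09 and -1.04. At the other end stood Rad17, the loader of that clamp (0.01 ± 0.04, adjusted p = 0.88), Atrip (-0.37 ± 0.07) and Rad9a (-0.49 ± 0.05).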

How the data were processed

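Transcripts of 6 samples were measured on 1-colour Affymetrix Mouse Genome 430 2.0 arrays, 1 array each, and grouped by their titles. Each deposited file holds linear intensities, 1 per probe set for 45101 probe sets, from 2.187 to 20113. Per the submitters' processing notes the tools were MAS5 and RMA, while the step that made these values was not stated in the sources used here; the array medians (38.0 to 39.2) lie close together, so the values were used as deposited after log2. Values scaled to like medians cannot show a shift shared by most genes. No detection calls were used, and the number of arrays limits the precision. The 64 control probe sets were kept apart; of the others, the platform table names 1 gene for 34945, several for 932 and none for 9160. A probe set had to average at least 39.01, the median over probe sets, and the brightest was kept per gene. Symbols were checked through a RefSeq gene table (GRCm38.p6, 34741 probe sets matched).

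The groups were compared with limma 3.58.1 in R 4.3.3 (lmFit, then eBayes with an intensity trend), with no covariate and Benjamini-Hochberg adjustment over all genes; the words rose and fell are kept for an adjusted p under 0.05. Pair ratios were tested by exact permutation. The steps were tested on simulated data. Members are named throughout; values of every array are given for the lowest and highest member of each role and for members not called. The other lists name their 3 lowest and 3 highest. Members, lists and tests were chosen with earlier results of these data known. Alternatives covered the scaling, low values, dim filter, variance model, probe set choice, threshold, replicate number and each array. Promoters came from RefSeq windows. Plots were drawn with matplotlib 3.10.9.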

Additional observations from a re-analysis of the deposited data

How the results depend on the processing

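Over 20 alternative settings, between 39 and 45 members were called lower and 0 higher, and the median of the members ran from -1.47 to -0.87. Over the whole array the same settings called 2499 to 7707 genes lower and 963 to 4144 higher. The count of 45 came from scaling to the poly-A RNAs, where 7707 genes were lower. In 39 members direction and call were kept under every setting that tested them, which for Chtf18 was 19 of the 20. The others were Orc3, Gins3, Orc4, Orc5, Gins4 and Rfc2. Orc3 lost its call in 12 settings, and Orc4, Orc5, Gins4 and Rfc2 lost theirs against a minimum of 1.2-fold, which asks for a larger change. Gins3 turned to 0.0165 with quantile normalization (adjusted p = 0.777), to 0.0035 with array weights (0.95) and to 0.0022 without NADA replicate 3 (0.974; -0.0443 to 0.0022 over the omissions of 1 array), and was called lower after scaling to the poly-A RNAs (-0.53). Cdc45 turned to 0.0600 in its other probe set, a comparison added after seeing the data.

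Medians that moved by more than 1 SD between arrays are given here; the cause was not tested. With quantile normalization they were -0.89 over the members, -0.56 for origin recognition, -0.81 for origin firing, -1.01 for polymerase delta, -0.78 for polymerase epsilon, -0.85 for the clamp and loaders, -0.70 for single-strand binding, -0.94 for Okazaki fragment joining, -1.39 for fork protection, -0.87 for the other initiation and fork genes and -0.74 for checkpoint genes. With median centring they were -0.998 over the members, -0.64 for origin recognition, -0.88 for origin firing and for polymerase epsilon, -0.95 for the clamp and loaders, -0.82 for single-strand binding, -1.05 for Okazaki fragment joining, -0.95 for the other initiation genes and -0.82 for checkpoint genes. Scaled to the poly-A RNAs, which lowers every value alike, they were -1.47, -1.11 for origin recognition, -1.56 for licensing, -1.35 for origin firing, -1.40 for polymerase alpha-primase, -1.58 for polymerase delta, -1.36 for polymerase epsilon, -1.42 for the clamp and loaders, -1.30 for single-strand binding, -1.52 for Okazaki fragment joining, -1.96 for fork protection, -1.91 for chromatin assembly, -1.43 for the other initiation genes and -1.29 for checkpoint genes, with 7707 genes of the whole array lower and 963 higher. With 32 added they were -0.87, -0.53 for origin recognition, -0.75 for origin firing, -0.99 for polymerase delta, -0.80 for polymerase epsilon, -0.83 for the clamp and loaders, -1.35 for fork protection, -1.17 for chromatin assembly, -0.87 for the other initiation genes and -0.71 for checkpoint genes, and the ratio of Rfc4 to Chtf18 turned to -0.19. With a floor of 50 they were -0.93 and -0.85 for the clamp and loaders, and that ratio turned to -0.43. With the mean of all passing probe sets they were -0.65 for origin recognition, -1.20 for licensing, -0.42 for origin firing, -0.89 for polymerase epsilon, -0.86 for the clamp and loaders, -1.13 for Okazaki fragment joining, -1.53 for fork protection, -0.83 for the other initiation genes and -0.69 for checkpoint genes. Without probe sets of types x and s, Okazaki fragment joining stood at -1.25. Where probe sets had to pass the 70th percentile the clamp and loaders stood at -0.89 and checkpoint genes at -0.93, as fewer genes were tested. Against a minimum of 1.2-fold, 2499 genes of the whole array were lower and 2121 higher.

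Without 1 array, 43 members were called lower each time, as were 3770 to 3930 genes of the whole array. Medians then ran from -0.97 to -0.94 over the members, -0.65 to -0.57 for origin recognition, -0.86 to -0.83 for origin firing, -0.93 to -0.90 for the clamp and loaders, -0.93 to -0.89 for the other initiation and fork genes and -0.81 to -0.76 for checkpoint genes. With the replicate block, 43 members and 3966 genes of the whole array were called lower, and Orc3 was not (adjusted p = 0.0675). Same-numbered arrays correlated in their deviations at 0.16, -0.10 and 0.02, and 3 of the 6 arrays correlated best with their own number. The labels give only a replicate number, and so few arrays cannot show whether same-numbered ones share a culture or a batch. Chtf18 is the 1 member whose mean signal in NADA lay under the dim limit. Chaf1b, at 98.6 in NADA, also moved, from -1.41 to -1.17 with 32 added.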
